A study of Canis lupus familiaris with 6 samples.

Results

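The SRSF and hnRNP genes encode proteins that bind pre-mRNA and steer the choice of splice sites. They were taken as the protein-coding genes of the deposited gene table whose symbol is SRSF followed by a number or begins with HNRNP. The rule found 31 genes, 11 SRSF and 20 hnRNP, among 35993 genes in the table, of which 19550 are protein-coding. All 31 passed the filter on low counts, so that none was left out of the test.

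SR proteins (the SRSF family) carry RNA-recognition motifs and a tail rich in arginine and serine, and many of them bind exonic enhancers and favour inclusion of the exon. The hnRNP proteins coat nascent transcripts, and many of them oppose SR proteins by silencing exons, beside roles in mRNA export, stability and translation. Many genes of both families limit their own output through transcript forms that cannot make the protein and are removed by nonsense-mediated decay, so that the total RNA of a gene and the share of its coding transcripts can differ.

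RNA-Seq was performed on CPEK cells, a canine epidermal keratinocyte line labelled WT, in 3 gas control and 3 dCAMP libraries. The dCAMP-treated cells received cold atmospheric microwave plasma (CAMP, an ionized gas) directly for 30 s, and the control cells received gas. The cells then rested for 15 min, the medium was replaced, and RNA was collected after a further 24 h. All cells were grown in DMEM with serum and antibiotics, and the comparison asks how the plasma changed the transcriptome. The labels do not say that the libraries of a group came from separate cultures, so the p-values measure only the spread between these libraries.

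The libraries held 43084921 to 54082634 counts. The keratinocyte markers summed to 52160 to 66300 CPM (counts scaled to library size, with TMM factors), whereas the fibroblast, melanocyte and immune lists summed to at most 7.1, with DCN, LUM, PDGFRB, DCT, TYR, TYRP1, CD3E and PTPRC at 0 in every library. The endothelial list summed to 15.6 to 24.7, with PECAM1 at 0. The gas libraries stood apart from each other. The first principal component of all genes held 71.2% of the variance and placed gas 1 at -94.1, gas 2 at -23 and gas 3 at 21.7, next to the dCAMP libraries at 28.6 to 33.6. Over the 31 splicing factors alone the first component held 90% of the variance, with gas 1 at -2.95, gas 2 at -0.48, gas 3 at 0.91 and the dCAMP libraries at 0.82 to 0.87. Log2 fold changes are therefore given for every splicing factor with all libraries, without gas 1 and without gas 3. In bulk RNA, fewer cells of a type and less RNA per cell cannot be told apart.

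The factors covered a wide range of levels per length. On the FPKM scale, HNRNPA2B1, which binds pre-mRNA and mRNA transport elements, had the highest mean level over the 6 libraries at 574, followed by HNRNPK, a poly(C)-binding protein, at 274 and HNRNPAB at 244. Among the SRSF genes SRSF2 had a mean FPKM of 134, SRSF9 of 133 and SRSF3 of 111, and the levels of these neighbours overlapped between libraries. SRSF12 was the lowest SRSF gene at 4.15 FPKM, and HNRNPLL the lowest hnRNP gene at 8.86 FPKM.

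**Figure D1:**
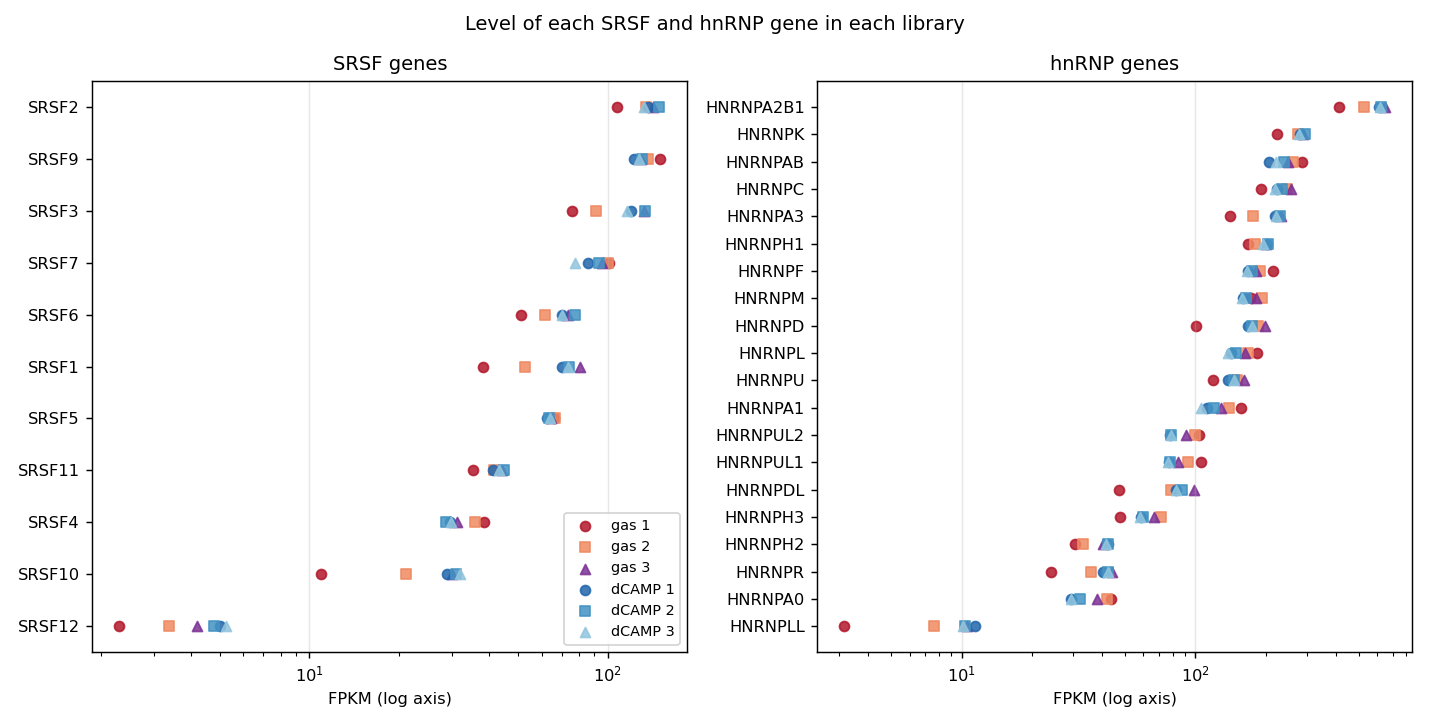
FPKM of each SRSF gene (left) and hnRNP gene (right) on a log axis, with 1 point per library and genes ordered by mean FPKM. HNRNPA2B1 lay highest at 574 on average, and gas 1 lay apart on the low side for SRSF10, SRSF12 and HNRNPLL.

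No splicing factor passed an adjusted p of 0.05 in the comparison of dCAMP with gas (edgeR's quasi-likelihood test, Benjamini-Hochberg adjustment over 14708 genes), where 0% of all genes tested did. The adjusted p of the 31 genes lay between 0.221 and 0.976. At an unadjusted p under 0.05, 1 gene was higher in dCAMP-treated cells, SRSF12, against 6.81% of all genes tested. At the same limit 8 genes were lower, against 13.9% of all genes tested: HNRNPA0, HNRNPUL2, HNRNPA1, HNRNPL, HNRNPUL1, HNRNPAB, HNRNPF and SRSF4. The study's methods applied a rule to DESeq2 results, a change of at least 2-fold together with an unadjusted p under 0.05. With DESeq2 here, this rule called 0 splicing factors, against 327 of the 15304 genes it tested. Applied to the edgeR fit, the rule also called 0 splicing factors, against 1.09% of all genes tested. The log2 fold changes ran from -0.44 to 0.63, with a median of 0.16 for the SRSF genes, 0.05 for the hnRNP genes and 0.03 for all genes tested. Without gas 1 the medians were -0.009 for the SRSF genes and -0.16 for the hnRNP genes, both on the other side of 0, and without gas 3 they were 0.24 and 0.11. Over all genes tested the median was 0.009 without gas 1 and -0.028 without gas 3. The median of the hnRNP genes was also below 0 with upper-quartile factors (-0.03), with voom (-0.08) and on the log2 scale of FPKM (-0.01). With upper-quartile factors the median of all genes tested was lower still, at -0.06. It was 0.018 with voom and 0.011 to 0.022 on the log2 scale of FPKM. DESeq2 put 0 splicing factors higher and 1 lower (HNRNPA0) under an adjusted p of 0.05, against 0.418% and 0.634% of all genes it tested. Voom with sample quality weights put 11 higher and 12 lower under the same limit, against 32.6% and 28.2% of all genes.

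The groups of libraries did not overlap for 12 splicing factors that were lower in dCAMP, against 20.9% of all genes tested, and for 2 that were higher, SRSF12 and HNRNPH2, against 19%. The 12 were the 8 named above with SRSF5, SRSF7, SRSF9 and HNRNPM. Without gas 3, 14 were higher without overlap, against 33.9% of all genes tested.

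Among the SRSF genes, SRSF12, an SR protein that can oppose other SR proteins, had the smallest unadjusted p. Its level was 8.99, 13.5 and 16.6 CPM in gas 1, gas 2 and gas 3, and 19.96, 19.2 and 21.3 CPM in the dCAMP libraries. Every dCAMP library lay above every gas library, and gas 1 was the lowest. The gene (chromosome 12, 48355844 to 48398753, CanFam3.1) was 1.54-fold higher in dCAMP, a log2 fold change of 0.63 ± 0.22 (SE), with an unadjusted p of 0.0296 and an adjusted p of 0.226 by edgeR. The value was 0.40 when gas 1 was left out and 0.80 when gas 3 was. MIR8833 lies in the same locus.

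SRSF10, which represses splicing when dephosphorylated, as in heat shock, spread most over the gas libraries among the SRSF genes. It stood at 34.5, 68.9 and 101 CPM in gas and at 95.2, 101 and 104 CPM in dCAMP, so that gas 3 lay within the dCAMP libraries and gas 1 far below them. The log2 fold change of SRSF10 (chromosome 2, 75587561 to 75601099) was 0.56 ± 0.36 (SE), with an unadjusted p of 0.167. Leaving out gas 1 gave 0.22, and leaving out gas 3 gave 0.91.

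Of the classical SR proteins, SRSF4 (chromosome 2, 71418626 to 71434140) was measured at 88.9, 84.98 and 74.5 CPM in gas and 70.2, 67.3 and 70.3 CPM in dCAMP. All 3 gas libraries were above the dCAMP libraries, gas 3 by the smallest margin. The log2 fold change was -0.26 ± 0.10 (SE), with an unadjusted p of 0.0369 and an adjusted p of 0.233 by edgeR, and it was -0.22 without gas 1 and -0.37 without gas 3. SRSF7, which also serves in mRNA export (chromosome 17, 30809743 to 30816269), had 124, 127 and 122 CPM in gas and 108, 117 and 97.2 CPM in dCAMP. Its groups did not overlap, and its log2 fold change of -0.21 ± 0.10 (SE) had an unadjusted p of 0.0673 (-0.23 without gas 1, -0.27 without gas 3). SRSF9 (chromosome 26, 16363275 to 16369699) had 183, 171 and 164 CPM in gas and 153, 162 and 158 CPM in dCAMP. Gas 3 and dCAMP 2 were close, and the log2 fold change of SRSF9 was -0.13 ± 0.08 (SE) with an unadjusted p of 0.159 (-0.10 without gas 1, -0.21 without gas 3).

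SRSF2, which recruits the splicing machinery to exonic enhancers and also acts in transcription (chromosome 9, 4028414 to 4032371), had 281.5, 386.5 and 423 CPM in gas and 405, 435 and 381 CPM in dCAMP. Gas 1 alone lay below the other 5 libraries by a wide margin. The log2 fold change was 0.16 ± 0.16 (SE), with an unadjusted p of 0.341, and it was -0.009 without gas 1 and 0.24 without gas 3. SRSF3, the smallest SR protein (chromosome 12, 5677879 to 5686220), had 227, 280 and 411 CPM in gas and 368, 404 and 354 CPM in dCAMP. Gas 3 was the highest of the 6, and the log2 fold change of 0.30 ± 0.22 (SE) had an unadjusted p of 0.217 (0.11 without gas 1, 0.52 without gas 3). Of the others, SRSF1 and SRSF6 had log2 fold changes of 0.34 and 0.24, SRSF11 of 0.12 and SRSF5 of -0.05, all with an unadjusted p of at least 0.189. Without gas 1 the values of SRSF1, SRSF6, SRSF11 and SRSF5 were 0.09, 0.07, -0.03 and -0.08, and without gas 3 they were 0.64, 0.35, 0.19 and -0.10. SRSF5 varied least over the gas libraries, at 115 to 119 CPM.

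**Figure D2:**
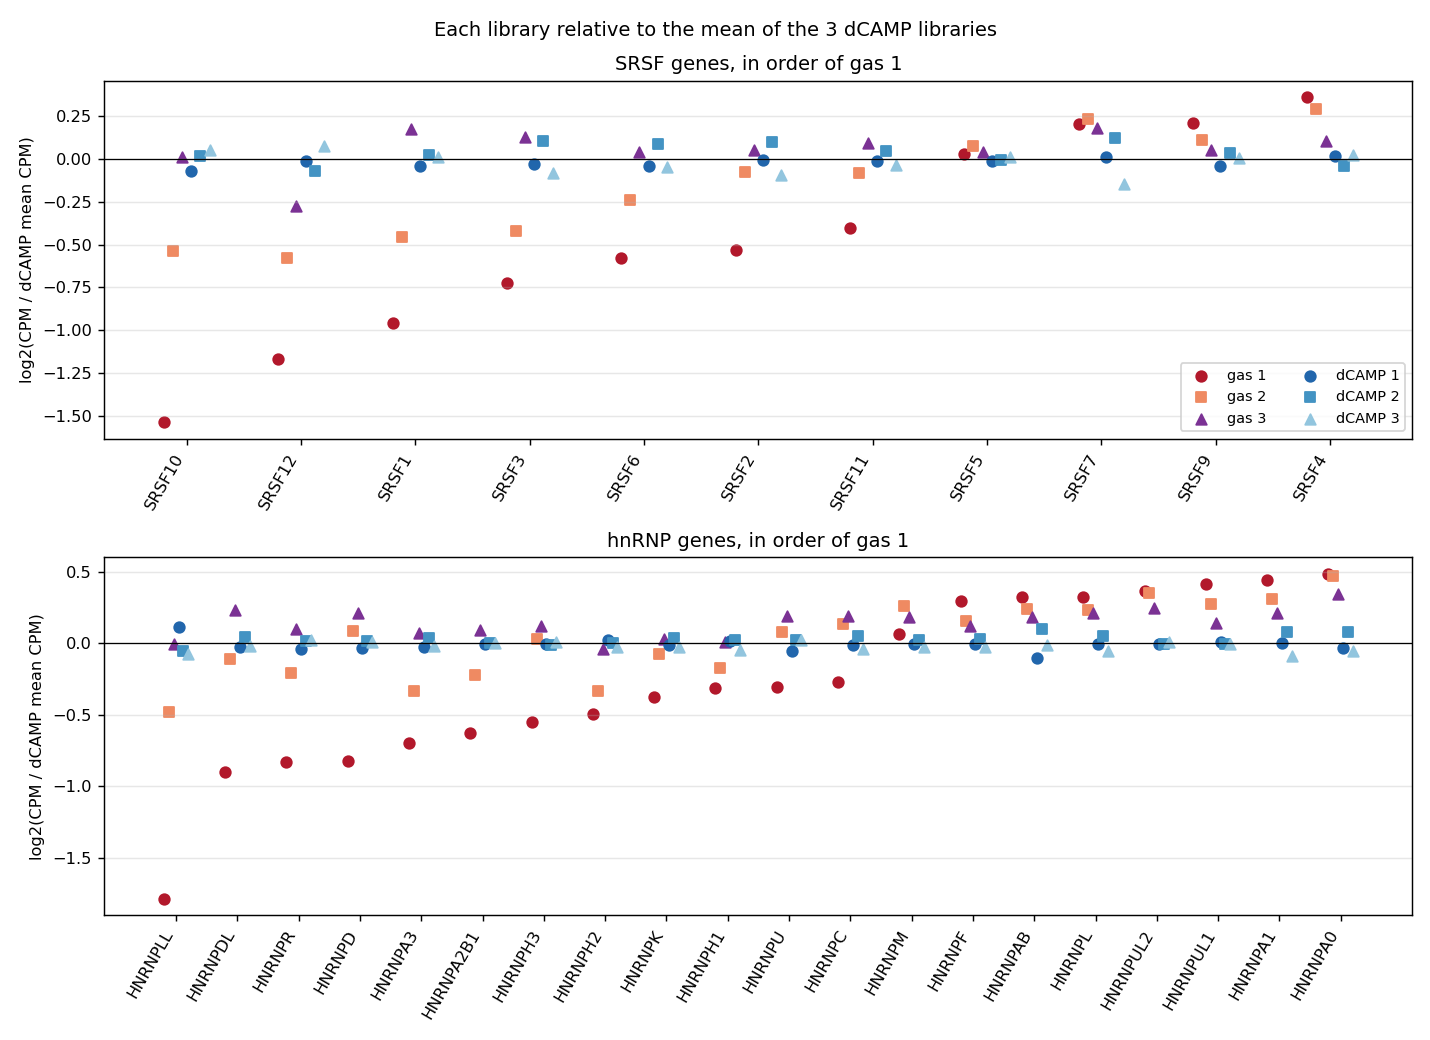
Log2 ratio of each library's CPM to the mean CPM of the dCAMP libraries for the SRSF genes (top) and hnRNP genes (bottom), ordered by gas 1, with 1 point per library. Gas 1 reached from far below the dCAMP libraries (SRSF10, HNRNPLL) to above them (SRSF4, HNRNPA0), while gas 3 lay nearer to them.

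In the hnRNP A/B group, HNRNPA0, an RNA-binding protein of AU-rich messages, had the smallest p of all 31 genes. It was measured at 139, 137 and 125 CPM in gas and 96.5, 104.5 and 95.4 CPM in dCAMP, and all 3 gas libraries were above the dCAMP libraries, gas 3 included. The gene (chromosome 11, 25464601 to 25467460, overlapping KLHL3) was at 0.739 of the gas level, a log2 fold change of -0.44 ± 0.09 (SE), with an unadjusted p of 0.00195 and an adjusted p of 0.221 by edgeR. Leaving out gas 1 gave -0.43, and leaving out gas 3 gave -0.53. The adjusted p of HNRNPA0 ranged from 2e-04 to 0.502 over the alternative analyses.

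HNRNPA1, a well-studied exon silencer (chromosome 27, 1013459 to 1020083), had 696, 635 and 594 CPM in gas and 512, 542 and 481 CPM in dCAMP. The groups did not overlap, and gas 1 was the highest library. Its log2 fold change was -0.33 ± 0.09 (SE), with an unadjusted p of 0.00999 and an adjusted p of 0.221 by edgeR (-0.28 without gas 1, -0.43 without gas 3). HNRNPA1 has many processed pseudogenes in mammals, and how reads shared with them were counted is not stated, so its values are uncertain.

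HNRNPA2B1 (chromosome 14, 39498805 to 39509034) had 807, 1068 and 1328 CPM in gas and 1243, 1247 and 1248 CPM in dCAMP. Gas 3 was the highest and gas 1 the lowest of the 6 libraries, with the dCAMP libraries between them. The log2 fold change was 0.22 ± 0.17 (SE), with an unadjusted p of 0.246, and it was 0.04 without gas 1 and 0.37 without gas 3. HNRNPA3 had a log2 fold change of 0.28 with an unadjusted p of 0.179, which was 0.10 without gas 1 and 0.46 without gas 3.

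The D-like hnRNP proteins bind AU-rich elements and regulate mRNA turnover. HNRNPAB (chromosome 11, 3355051 to 3360376, overlapping PHYKPL) had 414, 391 and 377 CPM in gas and 309, 354 and 328 CPM in dCAMP, without overlap. Its log2 fold change was -0.25 ± 0.08 (SE), with an unadjusted p of 0.0227 and an adjusted p of 0.221 by edgeR (-0.23 without gas 1, -0.33 without gas 3). HNRNPD and HNRNPDL, neighbours on chromosome 32, had log2 fold changes of 0.11 and 0.19, each with gas 1 far below the other libraries, at 169 and 175 CPM against at least 292 and 302. Without gas 1 these log2 fold changes were -0.17 and -0.09, and without gas 3 they were 0.25 and 0.41.

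HNRNPL, which binds CA repeats (chromosome 1, 114267195 to 114279107), had 428, 402 and 395 CPM in gas and 340.5, 354 and 329 CPM in dCAMP. All gas libraries were above the dCAMP libraries, and the log2 fold change of -0.26 ± 0.07 (SE) had an unadjusted p of 0.0112 and an adjusted p of 0.221 by edgeR (-0.24 without gas 1, -0.33 without gas 3). Its paralog HNRNPLL, known for exon skipping in activated T cells, had 10.95, 27.1 and 37.7 CPM in gas and 40.9, 36.5 and 35.9 CPM in dCAMP. Gas 1 was far below the other 5 libraries, a 3.44-fold range within the gas group that was the widest of the 31 genes. The log2 fold change of HNRNPLL was 0.58 ± 0.41 (SE), with an unadjusted p of 0.204, and it was 0.21 without gas 1 and 0.94 without gas 3.

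The U group binds RNA and chromatin-associated scaffolds. HNRNPUL2 (chromosome 18, 53942515 to 53953343) had 325, 321.4 and 298 CPM in gas and 251, 251 and 253 CPM in dCAMP, and no gas library came near the dCAMP libraries. Its log2 fold change was -0.32 ± 0.07 (SE), with an unadjusted p of 0.00353 and an adjusted p of 0.221 by edgeR (-0.32 without gas 1, -0.41 without gas 3). HNRNPUL1 (chromosome 1, 112661955 to 112699112) had 439, 399 and 364 CPM in gas and 332, 328 and 329 CPM in dCAMP, with gas 3 the nearest to dCAMP. Its log2 fold change was -0.28 ± 0.09 (SE), with an unadjusted p of 0.0184 and an adjusted p of 0.221 by edgeR (-0.23 without gas 1, -0.39 without gas 3). HNRNPU, the founder of the group, had a log2 fold change of -0.01, from 455, 594 and 642 CPM in gas and 542, 571 and 570 CPM in dCAMP. It was -0.16 without gas 1 and 0.05 without gas 3.

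The F/H group binds runs of G. HNRNPF (log2 fold change -0.19, unadjusted p 0.043 by edgeR) was lower in every dCAMP library, at 421 to 438 CPM against 466 to 528 CPM in gas. HNRNPH2 (log2 fold change 0.28, unadjusted p 0.0757) was higher in every dCAMP library, at 112 to 116 CPM against 80.8 to 111 CPM in gas, and gas 3 and dCAMP 3 nearly met. HNRNPH1 and HNRNPH3 had log2 fold changes of 0.15 and 0.11, with an unadjusted p of 0.165 and 0.575. Without gas 1, HNRNPF, HNRNPH2, HNRNPH1 and HNRNPH3 had -0.16, 0.16, 0.06 and -0.09, and without gas 3 they had -0.28, 0.37, 0.20 and 0.19.

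Of the rest, HNRNPK (chromosome 1, 75499334 to 75511525) had 728, 898 and 968 CPM in gas and 937, 969 and 930 CPM in dCAMP. Its groups overlapped, with gas 1 the lowest, and the log2 fold change was 0.13 ± 0.12 (SE) with an unadjusted p of 0.301 (0.002 without gas 1, 0.17 without gas 3). HNRNPM had a log2 fold change of -0.18 (unadjusted p 0.0658), HNRNPR of 0.26 (unadjusted p 0.281) and HNRNPC, which binds U tracts, of -0.04 (unadjusted p 0.794). Without gas 1 the values of HNRNPM, HNRNPR and HNRNPC were -0.25, 0.03 and -0.19, and without gas 3 they were -0.21, 0.44 and 0.006.

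The order of the gas libraries differed between the genes. In 19 of the 31, gas 1 was lowest and gas 3 highest of the gas libraries, an order found in 36.7% of all genes tested, and none of the 19 had an unadjusted p under 0.05 for a lower level in dCAMP. In 9 the order was the opposite, found in 36.3% of all genes tested, and these 9 were the 8 lower genes and SRSF9. HNRNPM, SRSF5 and SRSF7 had neither order. The order and the calls rest on the same gas values, so they are not independent. How many of all genes with each order were called lower was not computed, so no link particular to the splicing factors is read. The highest gas library exceeded the lowest by a median of 1.38-fold over the 31 genes (1.03 to 3.44), whereas the same ratio was 1.05-fold among the dCAMP libraries (1.004 to 1.204). The median log2 ratio to the dCAMP mean was -0.53 in gas 1, -0.08 in gas 2 and 0.05 in gas 3 for the SRSF genes, and -0.31, 0.09 and 0.17 for the hnRNP genes. Over all genes tested it was -0.02, -0.02 and -0.01. The length implied by count and FPKM had a median of 3268 bases in the 19 genes (1711 to 6396) and 2512 bases in the 9 (1242 to 4524). These ranges overlapped widely. Over the 31 genes, the Spearman correlation of this length with the log2 ratio of gas 1 to the dCAMP mean was -0.247. With each library's trend on this length removed, 1 gene was higher and 6 were lower at an unadjusted p under 0.05, against 5.9% and 15.2% of all genes tested.

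Without gas 1, 1 splicing factor was higher and 9 were lower at an unadjusted p under 0.05, against 8.75% and 11.8% of all genes tested, and 6 of the 9 were among the 8 above. HNRNPC, HNRNPD and HNRNPM entered, and HNRNPF and SRSF4 did not pass. Without gas 3, 13 of the 31 had an adjusted p under 0.05 by edgeR, 5 higher against 15% of all genes tested and 8 lower against 18.1%. The 5 were SRSF1, SRSF3, SRSF12, HNRNPA3 and HNRNPH2, and all 8 were the genes named above. With gas 2, dCAMP 1, dCAMP 2 or dCAMP 3 left out in turn, 4, 4, 6 and 3 of the 31 were lower at an unadjusted p under 0.05, against 5.82%, 5.75%, 6.57% and 4.7% of all genes tested. In these fits 0 of the 31 were higher, against 2.43%, 2.48%, 3.04% and 2.16% of all genes, so that SRSF12 no longer passed.

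**Figure D3:**
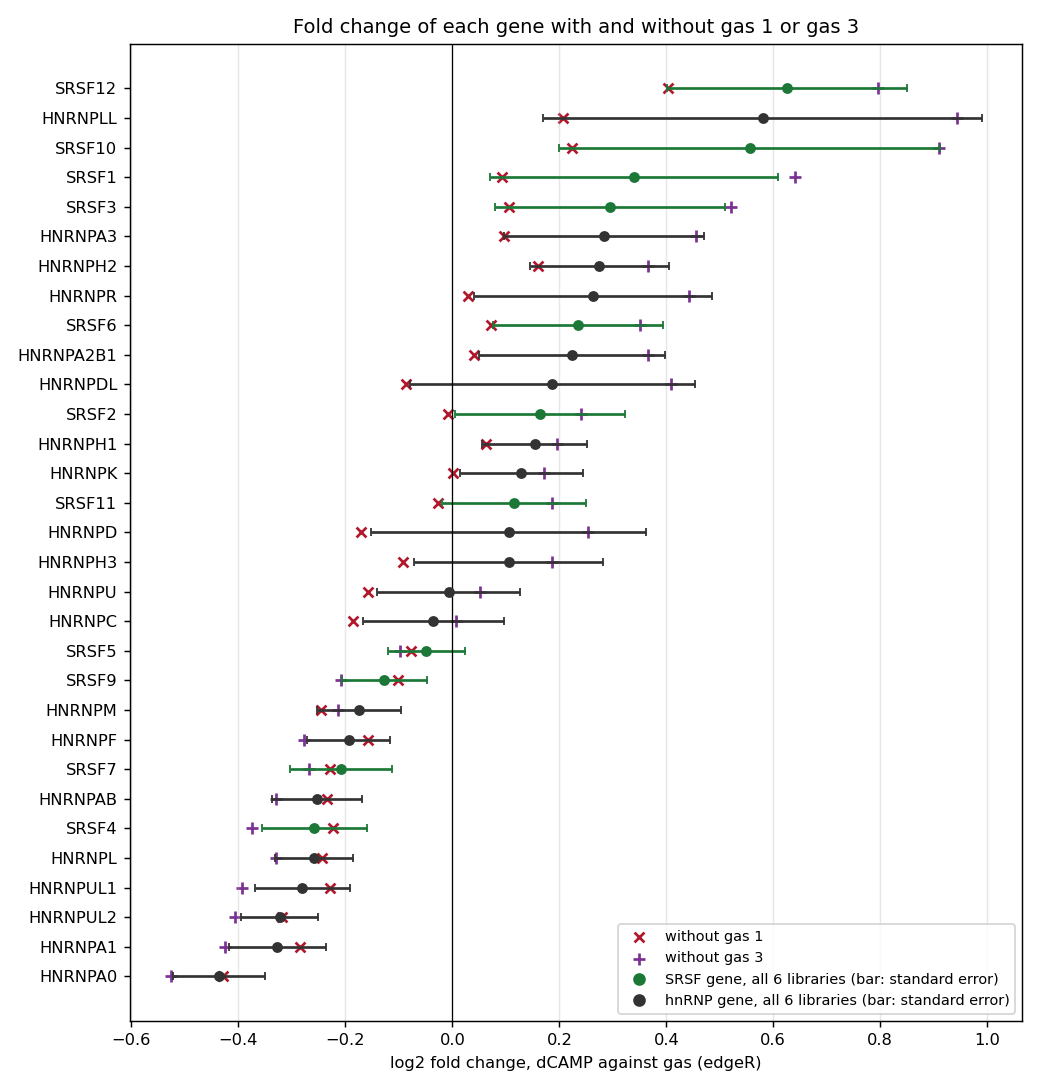
Log2 fold change of dCAMP against gas for each of the 31 genes from all 6 libraries (dots, bars are standard errors), without gas 1 (crosses) and without gas 3 (plus signs). HNRNPA0 lay lowest at -0.44 and SRSF12 highest at 0.63, and most genes above 0 moved toward 0 without gas 1.

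Isoform use was read from the transcript table, in which the 31 genes have 142 transcripts. Of these, 129 in 23 genes were tested for a change against the rest of their gene (edgeR's diffSpliceDGE). The other 8 genes, HNRNPAB, HNRNPA0, HNRNPA1, HNRNPUL2, SRSF1, SRSF3, SRSF4 and SRSF9, have 1 transcript each in the table, so 5 of the 8 genes lower in dCAMP give no reading of isoforms. The transcripts of the table are known ones, and their counts were assigned among overlapping forms by the authors' software, which bears on each share below.

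One transcript, HNRNPF variant X5, had an adjusted p under 0.05 against 0.195% of all transcripts tested, and 2 had an unadjusted p under 0.05 against 1.9%. By gene, HNRNPF alone of the 23 passed (Simes test, adjusted p 0.0288), against 0.54% of all genes tested. HNRNPF variant X5 (chromosome 28, 3651685 to 3672320) had 198, 588 and 258 counts in gas and 0 counts in each dCAMP library. Taking 3 counts over the dCAMP group as the most a count of 0 allows, counting error alone would put it at least 308-fold lower in dCAMP. That bound leaves out how counts were assigned among the overlapping forms of HNRNPF, so the true difference may be smaller. The variant held only 0.811% to 2.33% of the counts of HNRNPF in gas, and its adjusted p of 0.0158 was 0.00997 to 0.208 when single libraries were left out and 0.591 with voom. The call held without gas 2 and was lost without each of the other 5 libraries. HNRNPF variant X6 was at 0 in gas 2 alone, with 608 to 953 counts in the other 5 libraries.

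SRSF12 had the other transcript with a small p before adjustment. Variant X2 (unadjusted p 0.0389, adjusted p 1, edgeR) held 37.5%, 50.1% and 70.9% of the counts of the gene in gas and 24.4%, 4.13% and 1.14% in dCAMP. All gas libraries were above all dCAMP libraries, and the spread within each group was wide. Variant X1 held the opposite shares, 61.5%, 49.2% and 28.7% in gas and 63.2%, 93.7% and 98.0% in dCAMP.

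HNRNPH3 had a like pattern in variants X5 and X1. Variant X5 held 52.2%, 57.9% and 30.6% in gas and 23.4%, 21.9% and 17.8% in dCAMP (unadjusted p 0.058, edgeR). Variant X1 held 21.8%, 22.2% and 43.0% in gas and 53.7%, 52.5% and 61.3% in dCAMP (unadjusted p 0.11, edgeR). Neither pair of groups overlapped, and gas 3 was nearest to dCAMP in both. Their adjusted p was 1 by edgeR, and 0.0105 and 0.0102 by voom with diffSplice. HNRNPUL1 variant X4 held 7.58%, 8.23% and 9.51% in gas and 3.44%, 4.57% and 3.03% in dCAMP (unadjusted p 0.0986, adjusted p 1, edgeR), without overlap.

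SRSF2, which overlaps METTL23, was the only SRSF gene with transcripts of a non-coding class, 3 of 5. Their summed share of its counts was 55.2%, 27.9% and 18.8% in gas (34% ± 18.9, SD, n = 3) and 18.2%, 17.0% and 25.7% in dCAMP (20.3% ± 4.7, SD, n = 3). Gas 1 was far above the other libraries, while gas 3 lay within the dCAMP range. The difference of -13.7 points had an exact permutation p of 0.2 (two-sided, and 0.1 is the smallest that 3 against 3 libraries allow), and it was -3.05 points without gas 1 and -21.2 without gas 3. Variant X4, the larger non-coding form, held 39.9%, 20.4% and 13.3% in gas and 13.0%, 11.8% and 16.8% in dCAMP (unadjusted p 0.165, edgeR). In summed levels, the coding transcripts of SRSF2 had 127, 281 and 342 CPM in gas and 333, 360 and 285 CPM in dCAMP, and the non-coding ones had 156, 109 and 79.4 CPM in gas and 73.8, 73.7 and 98.3 CPM in dCAMP. In gas 1 the non-coding sum was thus the higher of the pair, and in the other 5 libraries the coding sum was.

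Among the hnRNP genes, HNRNPDL, HNRNPD and HNRNPA2B1 have non-coding transcripts, 2 each. The share of HNRNPDL was 47.1%, 39.1% and 32.7% in gas and 34.7%, 36.0% and 33.4% in dCAMP, a difference of -4.91 points with an exact permutation p of 0.4. HNRNPD, which overlaps LOC478449, had 20.9%, 15.2% and 12.8% in gas and 13.5%, 15.4% and 13.7% in dCAMP (-2.05 points, exact permutation p 0.7). In both, as in SRSF2, gas 1 had the highest share. HNRNPA2B1 had shares of 0.945% to 1.96% in gas and 1.16% to 1.9% in dCAMP, which overlapped. These 4 exact permutation tests had p of at least 0.2, and no adjustment was made.

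**Figure D4:**
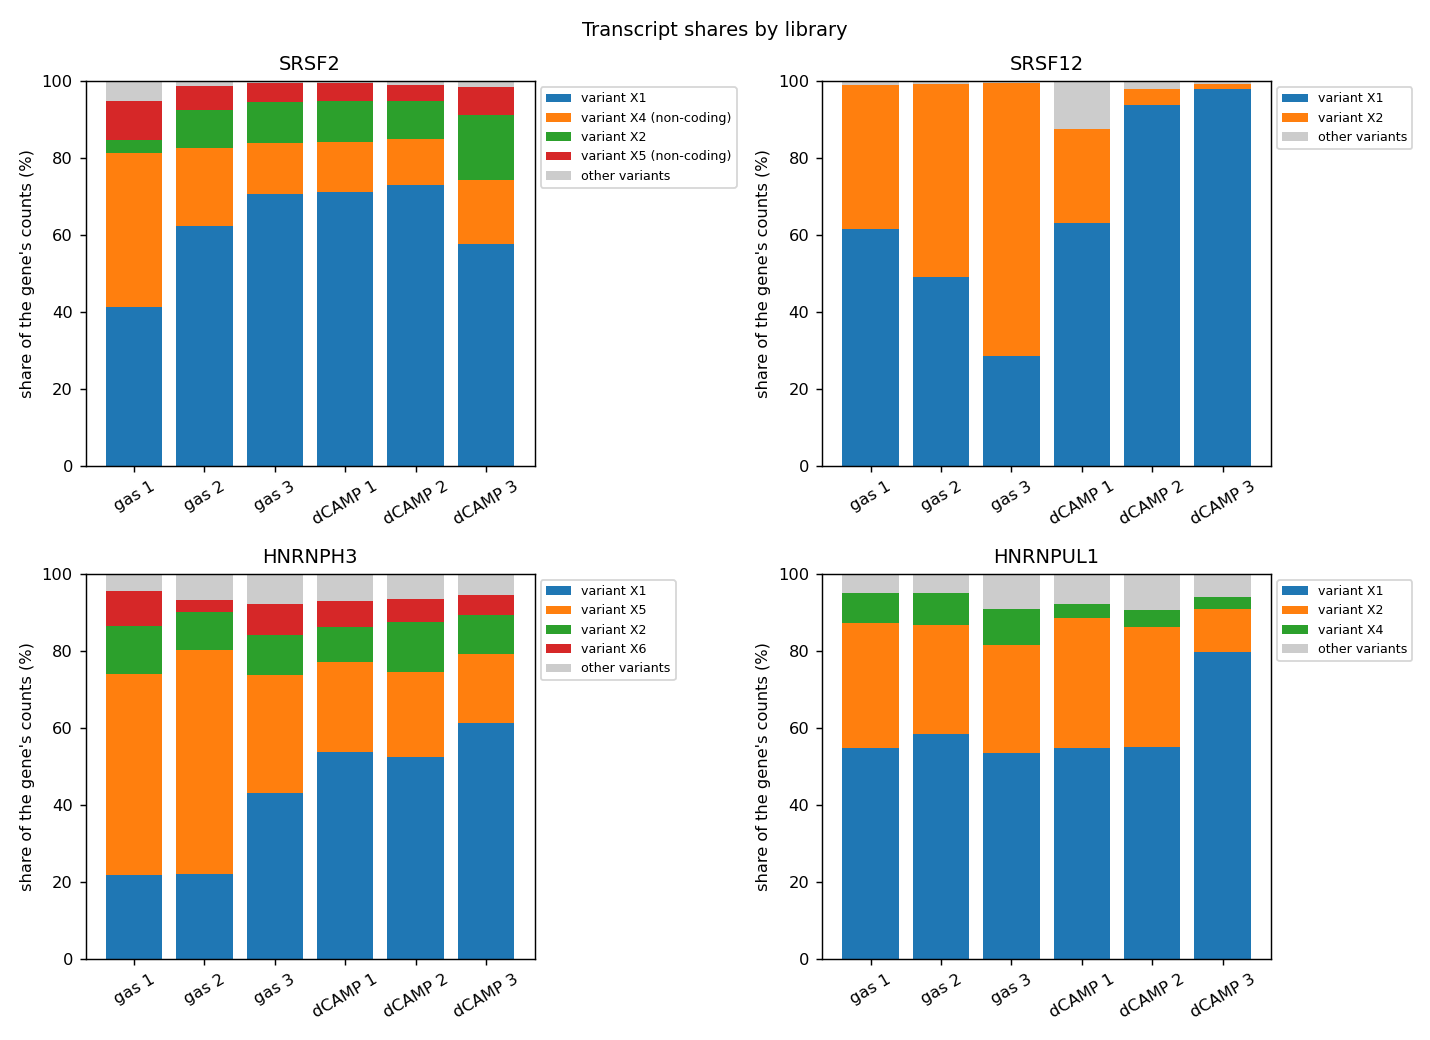
Share of each gene's counts held by its transcripts in each library for SRSF2, SRSF12, HNRNPH3 and HNRNPUL1, drawn as stacked bars from 0 to 100%. SRSF12 variant X2 held 37.5% to 70.9% in gas and at most 24.4% in dCAMP, and the non-coding variants of SRSF2 held 55.2% in gas 1.

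Lists of genes that work with these families were read from the same fit. Of 34 core spliceosome genes, 0 were higher and 20 lower at an unadjusted p under 0.05, against 6.81% and 13.9% of all genes tested, with a median log2 fold change of -0.23 against 0.03 for all genes tested, and 0 had an adjusted p under 0.05 by edgeR and by DESeq2. That number was 21 without gas 3, where 33.1% of all genes passed, and 30 with voom, where 60.8% did. The 20 lower became 11 without gas 2, 10 without dCAMP 1, 11 without dCAMP 2 and 9 without dCAMP 3, where the share of all genes lower was 4.7% to 6.57%. SNRPB, a core Sm protein, had 209, 199 and 195 CPM in gas and 145, 162 and 136 CPM in dCAMP (log2 fold change -0.44 ± 0.09, SE, unadjusted p 0.00272). SNRPA, an RNA-binding protein of the first spliceosomal particle to bind the donor site, had a log2 fold change of -0.56 ± 0.13 (SE, unadjusted p 0.00399).

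A further list held hnRNP proteins named outside the prefix and related RNA-binding proteins such as MSI2, ELAVL1 and CELF1. Of its 17 tested genes, 1 was higher (MSI2) and 9 lower (ELAVL1 among them) at the same limit. All genes gave the same 6.81% and 13.9%, and the median of the list was -0.23. The number lower was 5 without dCAMP 1 (5.75% of all genes). KHSRP, which binds AU-rich elements, had 102, 82.4 and 83.2 CPM in gas and 62.7, 64.4 and 65.7 CPM in dCAMP (log2 fold change -0.47 ± 0.11, SE). Of 20 SR-like proteins and SR kinases 1 was higher and 4 lower, against 6.81% and 13.9% of all genes, with a median of 0.18. That median was 0 without gas 1 and 0.004 with the length correction, against 0.009 and -0.036 for all genes tested. The number higher was 8 without gas 3 (23.8% of all genes) and 2 without gas 1 (8.75% of all genes). It was 0 without gas 2 (2.43% of all genes) or any dCAMP library (2.16% to 3.04% of all genes). RNPS1, an exon junction factor, and CLK2, a kinase of SR proteins, had log2 fold changes of -0.38 ± 0.08 and -0.42 ± 0.11 (SE). Of 15 genes of nonsense-mediated decay 0 were higher and 4 lower, against 6.81% and 13.9% of all genes, with a median of 0.03. The median was -0.20 with the length correction, -0.06 with upper-quartile factors and -0.04 without gas 2. For all genes tested these medians were -0.036, -0.06 and 0.007. The number lower was 6 without gas 3 (25.5% of all genes) and 2 without dCAMP 2 (6.57% of all genes). EIF4A3 and SMG5 had -0.45 ± 0.12 and -0.38 ± 0.11 (SE). For each of these named genes the 3 gas libraries lay above the dCAMP libraries, and each adjusted p was 0.221 by edgeR.

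**Figure D5:**
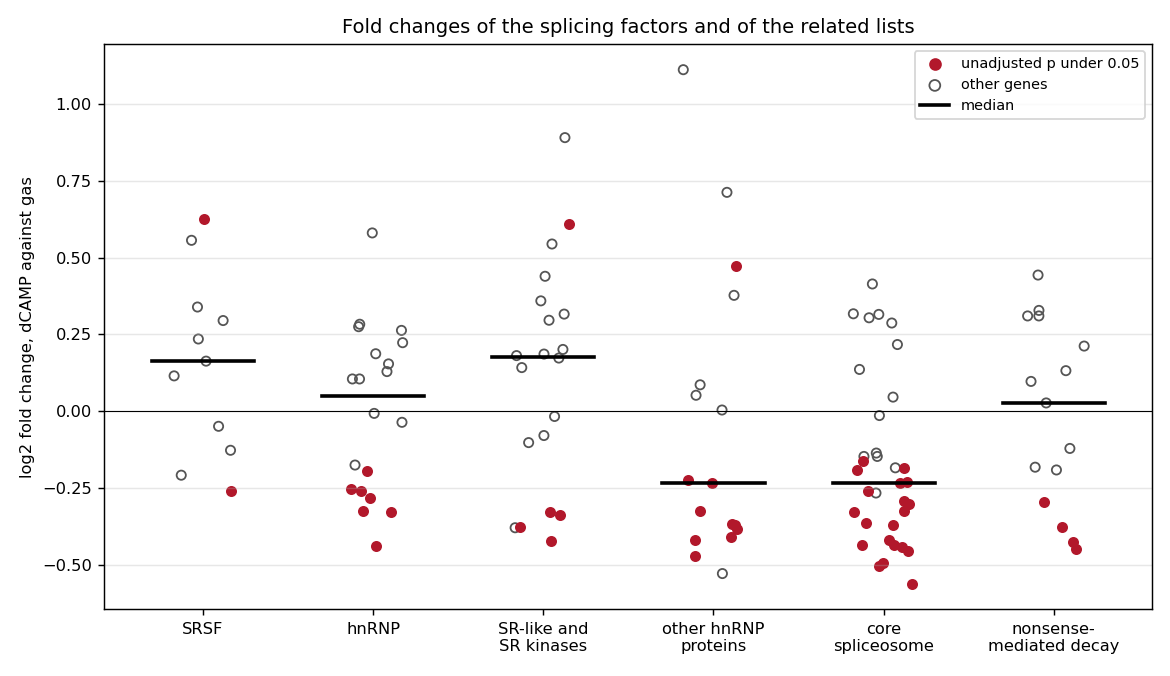
Log2 fold change of dCAMP against gas for the SRSF genes, the hnRNP genes and the related lists, with 1 point per gene, filled where the unadjusted p was under 0.05, and a line at the median. The core spliceosome and the list of other hnRNP and related RNA-binding proteins had medians of -0.23. The median of the SRSF genes was 0.16 with all libraries and -0.009 without gas 1.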

How the data were processed

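RNA-Seq libraries were prepared with a stranded mRNA kit. Per the labels, the authors used FastQC 0.11.7, Trimmomatic 0.38, HISAT2 2.1.0 and StringTie 2.1.3b with CanFam3.1. The annotation release and the counting of overlapping genes are not given in the sources used here. The deposited counts are whole numbers per gene and transcript without normalization. The authors' FPKM values are scaled to length and mapped reads, and the deposited TPM columns, 6 per table, were not used.

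Counts were analysed in R 4.3.3 with edgeR 4.0.16 (TMM, filterByExpr, prior count 2, quasi-likelihood test, Benjamini-Hochberg adjustment over all genes tested). Alternatives used limma 3.58.1 and DESeq2 1.42.0. For isoform use, the Simes test replaced the planned gene-level F test. The F test was set aside for too many false calls in simulated data, and those calls are not given here. A transcript is non-coding by its RefSeq accession class. The members, lists and tests were chosen with earlier results of these data known. Genes named in full are, in each family, the 5 of smallest p and the 3 of highest mean FPKM, with the 6 transcripts of smallest p and the 2 genes of smallest p in each list, of which 1 is not reported here; HNRNPLL, HNRNPF, HNRNPH2 and SRSF12 variant X1 were given in more detail after their values were seen. Of all 31 genes, those overlapping another locus are SRSF2, SRSF12, HNRNPA0, HNRNPAB, HNRNPD, HNRNPF, HNRNPK and HNRNPLL. The marker lists check the label of the cell line. A count of 0 allows up to 3 counts, counting error only.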

Additional observations from a re-analysis of the deposited data

How the results depend on the processing

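Depth was not varied. Of the 9 genes with an unadjusted p under 0.05, 0 turned direction under any alternative. The number lower at that limit was 8. It was 5 with the replicate number as a block (replicate block, 9.56% of all genes). With the replicate block and a length correction it was 4 (10.1% of all genes). When single libraries were left out it was 3 to 11, against 4.7% to 25.5% of all genes. The number higher was 1, and it was 11 with voom and sample quality weights (34.5% of all genes). With single libraries left out it was 0 to 11, against 2.16% to 23.8% of all genes. Adjusted p values under 0.05 numbered 0, and 1 with DESeq2 (1.05% of all genes), 23 with voom (60.8% of all genes) and 0 to 13 with single libraries left out, 13 without gas 3 (33.1% of all genes). The number of genes whose libraries did not overlap and were higher was 2, and 2 to 14 with single libraries left out (alternatives chosen after seeing the data). It was 14 without gas 3, where 33.9% of all genes did the same. The same-number correlations of library deviations were 0.13, 0.024 and 0.048, all small, so the numbers were not read as pairs. Gas 1 correlated best with dCAMP 1 and gas 2 with dCAMP 2, whereas gas 3 correlated best with dCAMP 2 (0.087). The cause of these changes was not tested.

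In the related lists, the number of SR-like proteins and SR kinases higher in dCAMP was 10 with voom, 0 with the replicate block and 0 to 8 with single libraries left out. For the list of other hnRNP and related RNA-binding proteins it was 2 with DESeq2, with the log2 of FPKM plus 1 or plus 0.1 and with the replicate block. It was 5 with voom and 0 to 4 with single libraries left out, while the number lower was 5 to 10. For the core spliceosome the number higher was 5 with voom, 1 with the replicate block and length correction and 0 to 2 with single libraries left out. The number lower was 26 with voom and 9 to 22 with single libraries left out, 9 without dCAMP 3. For nonsense-mediated decay the number higher was 4 with voom and 0 to 3 with single libraries left out, and the number lower was 2 to 6. Of all genes, 34.5% were higher and 30.4% lower with voom. With single libraries left out, 2.16% to 23.8% of all genes were higher and 4.7% to 25.5% lower. The share higher was 9.94% with the replicate block, 10.1% with the length correction added, 9% with DESeq2 and 10.7% to 11.9% on the log2 scale of FPKM.

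For isoform use, the number of transcripts with an adjusted p under 0.05 was 1, and it was 0 for transcripts with at least 5% of their gene and 10 counts on average, 2 with voom, 0 with the replicate block and 0 to 1 with single libraries left out. The 2 with voom were HNRNPH3 variants X5 and X1, and HNRNPF variant X5 was not among them. The number of genes was 0 without a filter, 0 with that share minimum, 1 with voom, 0 with the replicate block and 0 to 1 with single libraries left out.

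Of 7 genes that turned direction, all had an unadjusted p above 0.05 with all libraries. HNRNPH3 had log2 fold changes of -0.023 with voom, -0.056 and -0.057 with the log2 of FPKM plus 1 and plus 0.1, and -0.093 to 0.187 with single libraries left out. HNRNPD had -0.079 with voom and -0.17 to 0.253. HNRNPC had 0.002 with the replicate block and length correction and -0.186 to 0.006, and HNRNPU had 0.004 with the log2 of FPKM plus 1 or plus 0.1 and -0.157 to 0.052. SRSF2 ranged from -0.009 to 0.241, SRSF11 from -0.026 to 0.187 and HNRNPDL from -0.086 to 0.409. The non-coding share difference ranged from -0.182 to 0.326 points in HNRNPA2B1 and from -3.85 to 0.2 points in HNRNPD.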
